A study of Mus musculus with 32 samples.

Results

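The frontal cortex (FCtx) transcriptome of untreated control mice was described on its own, without any comparison with ethanol. The 12 arrays whose titles begin with Control were taken out of the 32 arrays of the study, and the other 20 arrays, all from ethanol-treated mice, were left aside. On these 12 arrays a probe counted as detected when its detection p-value was below 0.01 on at least 9 of them, and 10240 of the 25697 probes met this rule (39.8%). They named 7942 genes. Each gene was then placed by the mean and by the SD of its normalized log2 signal over the 12 mice. Detection, mean and SD chose and ordered the genes, so these values are descriptions and carry no test.

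All mice were females of the F1 hybrid labelled C57BL/6J x FVB/NJ F1, and the study's methods state that both directions of the cross were used without saying which mouse came from which. The control group is given as untreated in the series' design, while the ethanol mice had access to 20% ethanol over 20 days. What the controls drank and the age of each mouse are not given in the sources used here, while the study places its treated mice in early adulthood. RNA came from the dorsal part of the most rostral coronal slice of the brain, above the forceps minor and with the olfactory bulbs taken off, and was hybridised to Illumina MouseRef-8 v2.0 BeadChips, glass arrays that carry beads coated with 50-base probes. Each mouse had 1 array. Controls C52, C54, C55 and C56 lay on chip 3 at positions B, D, F and H, next to 4 ethanol mice. Chip 4 held controls only, where C57, C59, C60 and C62 took position A, C, E or G in that order and C63, C64, C65 and C66 position B, D, F or H. These 3 sets of 4 are called chip 3 even, chip 4 odd and chip 4 even below. Mouse number and chip position run together on chip 4, and mouse number and chip run together between chips, so their effects cannot be told apart.

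The frontal cortex is built of layers of excitatory projection neurons that release glutamate and of fewer inhibitory interneurons that release GABA, supported by astrocytes, by oligodendrocytes that wrap axons in myelin, by microglia, by vessels and by the meninges that cover its surface. A piece of cortex cut by hand holds these cells in amounts that vary with the plane of the cut, and neighbouring tissue (white matter, meninges, olfactory bulb, striatum) may be carried along. RNA of bulk tissue adds up over all of these, so fewer cells of a type and less RNA per cell cannot be told apart in any value below.

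The array of C66 stood apart from the other 11. It had 9480 probes detected, against 10637 to 11413 on the others, and the median raw signal of the detected probes was 245 on it and 389 to 513 on the others. Of the 10240 probes, 562 missed detection on C66 alone, and without this array the rule would have kept 10186. Pearson correlations between pairs of arrays over the 10240 probes ran from 0.981 to 0.994. The number of probes detected had a median of 11364 in chip 3 even, 10936 in chip 4 odd and 10721.5 in chip 4 even. With arrays, their number limits the precision, and the p-values below measure only the spread between these 12 mice with 1 array each.

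Just inside the detection rule, the 283 probes detected on exactly 9 arrays had a median normalized log2 signal of 7.57. Just outside, the 280 probes detected on exactly 8 arrays had 7.54, so the limit cut through a continuous range of faint probes. A further 12243 probes were detected on no array and 8863 on all 12. Several genes that cortex is known for fell outside because their probes stayed dark: the probes of Snap25, a core protein of synaptic vesicle release, of Gad2, an enzyme of GABA synthesis, and of Calb1 and Lhx6, both interneuron genes, were detected on 0 of 12 arrays. Gfap, the intermediate filament of astrocytes, was detected on 6. A dark probe on this platform is therefore no measure of an absent transcript.

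The brightest probes belonged to genes of protein turnover, translation and energy supply. Normalized log2 signal ranked probes by brightness, which also depends on the probe, so the order is not an order of transcript amounts. Ubb, which encodes ubiquitin, had a mean of 15.09 ± 0.08 (SD, n = 12). Rpl23, a protein of the large ribosomal subunit, followed with 15.06 ± 0.11, and Ckb, the brain form of creatine kinase, with 14.97 ± 0.08. Their values overlapped from mouse to mouse, and the brightest values of all arrays were set equal by the normalization, at 15.16. Among the 20 brightest were also the ribosomal proteins Rplp1, Rpl41 and Rpl38, the ferritin heavy chain Fth1, the cyclophilin Ppia, the ATP synthase subunit Atp5b, the tubulin Tuba1b, the prion protein gene Prnp, the elongation factor Eef1a1, calmodulin 3 (Calm3), cystatin C (Cst3), Wbp2 and Camk2n1, an inhibitor of the calcium and calmodulin dependent kinase II that is prominent in forebrain neurons. The remaining places of the 20, ranks 4, 8, 16 and 19, went to Ubb-ps, Gm8355, Gm3839 and Gm6316 in that order. These are names of pseudogenes or gene models whose probes may share sequence with a functional gene, and their signals are uncertain for this reason.

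Most genes differed little between mice. Over the 7942 genes, the SD between mice of the log2 signal was 0.127 at the median, with 0.0745 at percentile 5 and 0.235 at percentile 95. The bead error, the standard error over the roughly 40 beads of a probe on 1 array brought to the log2 scale, had a median of 0.0714 over the probes. The SD between mice exceeded 3 times the bead error for 7.82% of the probes and lay under the bead error for 3.02%. Counted by the brightest probe of each gene, only 102 genes had an SD above 0.3 and 7 above 0.5. By the same count, 97 genes (1.22%) spanned more than 1 log2 unit, a doubling of signal, between the lowest and the highest mouse. The steadiest genes of the brighter part were Morc2a, a gene of chromatin silencing, with 9.02 ± 0.03 (SD, n = 12), and Got2, the mitochondrial aspartate aminotransferase, with 13.01 ± 0.04. Rsn, Dmwd, the adenylate cyclase Adcy2, the arginine methyltransferase Prmt3, the phosphatase subunit Ppp2ca, the sugar kinase Nagk, Mtch1 and Rpl38 followed, all with SDs up to 0.0448. Each of these SDs lay under the bead error of its own probe, at 0.51 to 0.87 times it, so nothing is read from their order.

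**Figure D1:**
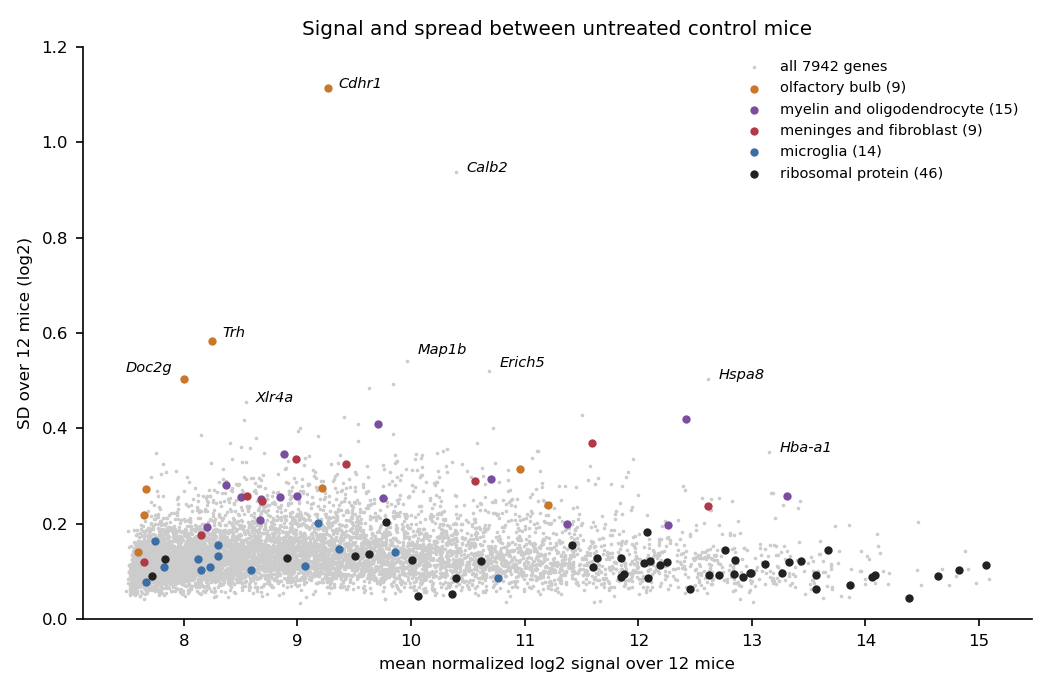
Mean normalized log2 signal (horizontal axis) and SD over the 12 control mice (vertical axis, log2) of each of the 7942 genes, with 5 gene lists coloured and the number of their detected genes in brackets. Cdhr1 and Calb2 stand above all other genes with SDs of 1.11 and 0.94, the 15 myelin genes all lie above the overall median SD of 0.127, and most ribosomal protein genes lie below it.

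The largest spread of all belonged to genes known from the olfactory bulb. Cdhr1, a cadherin of mitral and tufted cells, the output neurons of the bulb (chr14:37077849-37098347 in GRCm38.p6), had a lowest normalized log2 signal of 7.45, a median of 9.45 and a highest of 10.78. Calb2, the calcium-binding protein calretinin (chr8:110142526-110168212), ran from 8.92 over a median of 10.68 to 11.62. It is a marker both of a class of cortical interneurons and of bulb cells. Trh, the thyrotropin-releasing hormone precursor (chr6:92242061-92244650), ran from 7.25 to 9.04, and Doc2g, a double C2 domain protein found in bulb neurons (chr19:4003385-4007005), from 7.26 to 8.89. In each of these genes C63 and C66 were the lowest mice and C59 the highest. Across the 12 mice Cdhr1 correlated with Calb2 at r = 0.983, with Trh at 0.972 and with Doc2g at 0.967, given as descriptions over mice that share chips. The probes of Cdhr1, Trh and Doc2g were detected on 11, 10 and 9 of the 12 arrays, so their lowest values are at the detection limit.

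A short motif was searched upstream of the starts of the bulb genes. The T-box core GGTGTG, the binding motif of the family of the mitral cell factor Tbx21, was searched for on both strands in the 250 bases before the start, and 16.3% of the 32851 RefSeq promoter windows of this length (GRCm38.p6) held it. Of the 9 detected bulb genes, all with a window, 2 did, Cdhr1 and Doc2g, a share near that of all windows from which nothing is read. Their windows are shown as the upstream sequence of a pair of the most variable genes, with the match in capitals, and are written along the gene, on the minus strand for Cdhr1 (chr14:37098348-37098597) and on the plus strand for Doc2g (chr19:4003135-4003384):
Cdhr1: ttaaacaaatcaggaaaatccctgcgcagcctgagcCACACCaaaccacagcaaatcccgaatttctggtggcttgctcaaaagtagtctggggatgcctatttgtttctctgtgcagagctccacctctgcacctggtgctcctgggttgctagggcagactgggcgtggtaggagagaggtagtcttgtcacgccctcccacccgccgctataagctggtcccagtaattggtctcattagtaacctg
Doc2g: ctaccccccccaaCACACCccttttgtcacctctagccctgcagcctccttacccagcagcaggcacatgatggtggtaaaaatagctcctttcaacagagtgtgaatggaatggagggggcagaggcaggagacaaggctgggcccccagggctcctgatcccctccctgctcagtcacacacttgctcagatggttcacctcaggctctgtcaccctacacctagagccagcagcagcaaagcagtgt
Both matches are the reverse complement CACACC, and a match of 6 letters is a description of the sequence and not a binding site. No window of the other 7, that of Trh among them, held it.

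Of the 15 olfactory bulb genes on the array, 9 were detected: Cdhr1, Trh, Doc2g, Th, Slc17a6, Nmb, Calca, Reln and Meis2. All 9 had an SD above the overall median, and their median SD was 0.274 beside 0.127 over all genes. The defining factors of bulb projection neurons Eomes and Tbx21 were detected on 2 and 0 arrays, and Dlx5 and Synpr on 0. The score of the list, the mean over its genes of the difference from each gene's own mean, ran from -0.56 in C66 to 0.61 in C59. All 4 mice of chip 4 odd lay above every other mouse, at 0.26 to 0.61 against -0.56 to 0.10. The summed signal of the 9 genes on the log2 scale was 12.89 to 13.33 in chip 4 odd, 12.41 to 12.70 in chip 3 even and 12.33 to 12.78 in chip 4 even.

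Other genes of the 25 with the largest SD varied in different groups of mice. Map1b, a microtubule-associated protein of growing axons, had 9.20, 9.95 and 11.05 as lowest, median and highest normalized log2 signal, with C57 highest. Septin3, a septin of neurons, Mef2c, a transcription factor of cortical neurons, Cplx2, a complexin that clamps synaptic vesicle fusion, and Islr2 fell in the same cluster. Hspa8, the constitutive heat shock chaperone (chr9:40801276-40805202), had 11.53, 12.84 and 13.27, with the 4 mice of chip 4 odd lowest. Ppp1cb, a catalytic subunit of protein phosphatase 1 (chr5:32458848-32493713), Eif4g2, a translation initiation factor, the kinase Pak1, the spectrin Sptbn1, Syt11 and transferrin (Trf) grouped with it. Erich5 (chr15:34453312-34473892), Prf1, which encodes perforin, and the zinc finger gene Zxda formed a further group, low in all 4 mice of chip 3. The groups come from a clustering of these 25 genes at a distance of 0.6 (1 minus r) and describe only these 12 arrays.

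Xlr4a, an X-linked gene (chrX:73074343-73082527), behaved like none of these. It had 7.89, 8.53 and 9.21 as lowest, median and highest, with C52, C57 and C65 low and C60, C64 and C56 high, so every set held a low and a high mouse. Only 0.793% of its variance lay between the 3 sets, against a median of 32.7% over all genes. Of the 25 genes, 17 had more than 50% of their variance between the sets. The 25 were ranked by an SD that includes differences between sets, and the share of all genes above 50% was not counted. Nothing is read from this count.

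**Figure D2:**
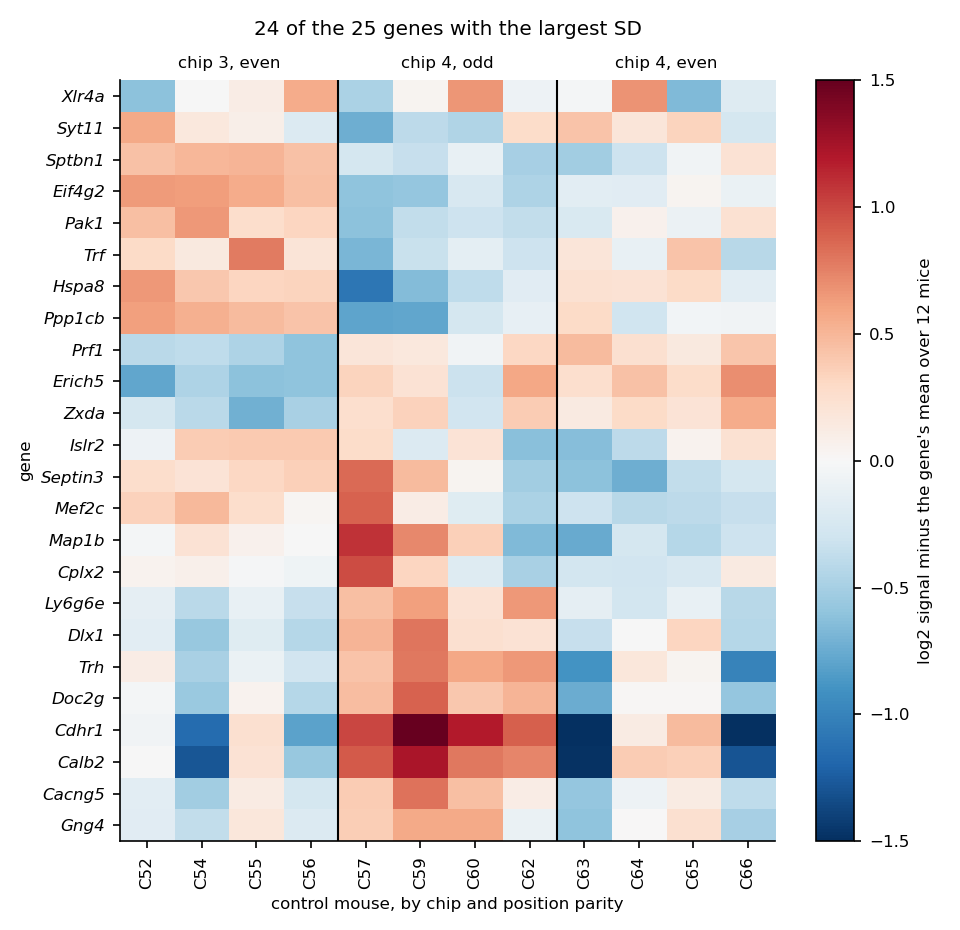
Normalized log2 signal minus the gene's mean over the 12 mice, for 24 of the 25 genes with the largest SD (rows, ordered by clustering) in each control mouse (columns, by chip and position). Colours are limited to 1.5 on either side. The block near the bottom from Ly6g6e to Cacng5 is red in the 4 mice of chip 4 odd, the block from Sptbn1 to Ppp1cb is red in chip 3 even, and Xlr4a changes within every set.

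Myelin genes also had a broad spread. Of the 17 myelin and oligodendrocyte genes on the array, 15 were detected and all 15 exceeded the overall median SD, with a median SD of 0.255. Mog, a glycoprotein on the outer face of myelin, had 8.30, 8.83 and 9.55 as lowest, median and highest normalized log2 signal, and Mag, a glycoprotein that faces the axon, 10.29, 10.66 and 11.19. C55 was highest in both, with C57 lowest for Mog and C66 for Mag. The score ran from -0.33 in C66 to 0.48 in C55, and 22.6% of the variance lay between sets for the median gene. Precursor cells of the same lineage varied less, with a median SD of 0.164 over 5 of 7 genes, among them Pdgfra, Olig1 and Gpr17.

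Meningeal and blood genes were variable too. Of 12 meninges and fibroblast genes, 9 were detected with a median SD of 0.258. Igf2, a growth factor made by the meninges in the adult brain, had 11.05, 11.53 and 12.31 as lowest, median and highest normalized log2 signal, and Dcn, the proteoglycan decorin of fibroblasts, 8.91, 9.38 and 9.94. The score was lowest in C63 (-0.35) and highest in C57 (0.32). Col1a1 and Col1a2, the chains of collagen I, were detected on 2 arrays each and Col3a1 on 0.

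Of 10 blood genes, only the globins Hba-a1, Hbb-b1 and Hbb-b2 were detected. Hba-a1, an alpha globin, had 12.58, 13.16 and 13.71 as lowest, median and highest normalized log2 signal, with C52 highest and C55 lowest in the score of the list (0.49 and -0.36). Pairs of genes had been picked for a test of whether they vary together, and adjustment was over 7 pairs. The mice share chips, so differences between the sets can enter the correlation and the p-value of each pair. Hba-a1 and Hbb-b1, a beta globin, correlated at r = 0.780 (permutation p = 0.00289, adjusted 0.00674) and rho = 0.727 (adjusted 0.0349). Without C52 and C55 r was 0.558, and within chip 4 it was 0.555, lower than over all mice. Near-identical copies exist within the alpha and within the beta globin genes, so a probe may report more than 1 copy of its own kind. The neutrophil genes S100a8, S100a9 and Ltf were detected on 0 arrays.

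By median SD, cell types of the cortex proper were steadier than the bulb, myelin and meningeal lists. Of these cell types, only microglia had a median SD below the 0.127 over all genes. Slc17a7, the vesicular glutamate transporter of cortical projection neurons, had a mean normalized log2 signal of 12.26 ± 0.17 (SD, n = 12), and the 7 detected of 12 excitatory neuron genes had a median SD of 0.153. Layer genes were present throughout the depth of the cortex: Cux2 of the upper layers had 8.91 ± 0.18, Fezf2 of layer V 9.22 ± 0.12 and Tle4 of layer VI 10.44 ± 0.20, and 13 of 18 layer genes were detected with a median SD of 0.175. Interneuron genes were led by Sst with 12.35 ± 0.14, Pvalb with 11.98 ± 0.13 and Gad1 with 11.84 ± 0.24, and 13 of 18 were detected with a median SD of 0.155. The astrocyte list had 13 of 15 genes detected and a median SD of 0.173, and the microglia list 14 of 15 with 0.118. The overall median SD was exceeded by 7 of 7 excitatory neuron genes and by 10 of 13 layer, interneuron and astrocyte genes each. The interneuron list also held Calb2 and Dlx1, with SDs of 0.94 and 0.42. Only 6 of the 14 microglial genes, which include Cx3cr1, P2ry12 and Tmem119, exceeded the overall median SD. Genes that define cortex were thus measured in all 12 mice, as the tissue label says. Markers of neighbouring tissue were detected in part. Of 10 striatum genes 5 were detected, with scores from -0.18 to 0.21, among them Ppp1r1b, a phosphatase inhibitor that cortex also expresses, with 10.21 ± 0.15 and the dopamine receptor Drd1 with 7.80 ± 0.12, while Drd2 and Adora2a, which mark striatal projection neurons, were detected on 0 arrays. Of 9 choroid plexus and ependyma genes 2 were detected, Aqp1, a water channel, with 7.76 ± 0.35 and Foxj1, a factor of ciliated cells, with 7.54 ± 0.08, with scores from -0.33 to 0.29, and Ttr of the choroid plexus was detected on 1 array.

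**Figure D3:**
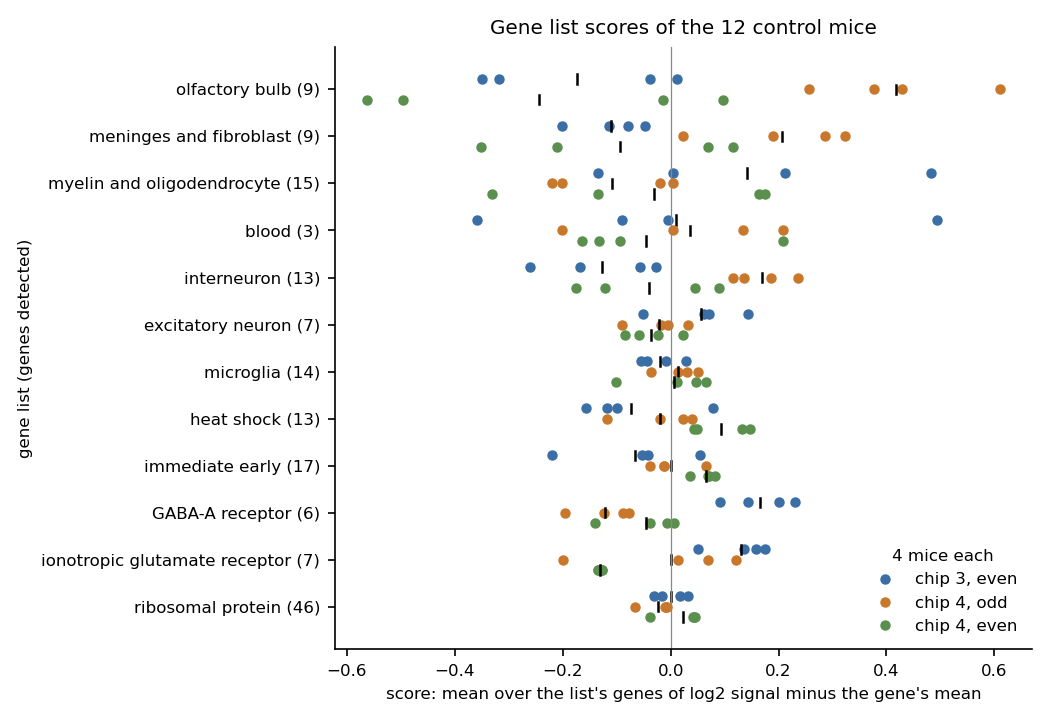
Score of 12 gene lists (rows) in each of the 12 control mice (points), as the mean over the list's detected genes of log2 signal minus the gene's mean; colours give the 3 sets of 4 mice and black ticks their means. The olfactory bulb scores span -0.56 to 0.61 with all chip 4 odd mice on the right, and the 46 ribosomal protein genes span less than any other list shown, from -0.07 to 0.05.

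Of the housekeeping lists, only glycolysis had a median SD between mice above the 0.127 over all genes. The median SD was 0.106 over 46 of 52 ribosomal protein genes, 0.121 over 63 of 68 genes of the respiratory chain, 0.134 over 13 of 14 genes of glycolysis and 0.113 over 14 of 17 genes often used as references. Of the reference genes, Ywhaz had 13.66 ± 0.07 (SD, n = 12), Tbp 8.15 ± 0.08 and Gapdh 13.33 ± 0.09, while the brightest probe of Actb had 11.95 ± 0.24. The other detected probes of Actb varied more, with SDs of 0.45, 0.32, 0.32 and 0.60. Enzymes that handle ethanol and acetaldehyde were measured here at their untreated level. Aldh2, the mitochondrial aldehyde dehydrogenase, had 11.23 ± 0.07 and catalase (Cat) 7.98 ± 0.18. Adh1, Adh4, Adh7 and Cyp2e1 were detected on 0 arrays, and the 10 of 16 detected genes had a median SD of 0.131.

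Genes that respond to a mouse's recent experience had median SDs close to those of the cortical layer and astrocyte lists. Of 24 immediate early genes, which neurons switch on within minutes of activity, 17 were detected with a median SD of 0.173. Arc, a regulator of synaptic receptors, had 10.21, 10.93 and 11.17 as lowest, median and highest normalized log2 signal, and Fos, a transcription factor subunit, 8.48, 8.92 and 9.30. Fos and Arc did not pass the test of a correlation over the 12 mice (r = 0.402, permutation p = 0.196, adjusted 0.275, rho = 0.0559, adjusted 0.868), with r = 0.362 within chip 4 and -0.129 without C55 and C63. Fos and the phosphatase gene Dusp1 had r = 0.637 (permutation p = 0.0273, adjusted 0.0478), with rho = 0.503 (adjusted 0.173), so only r passed. Its r was 0.522 without C55 and C63 and 0.513 within chip 4, and without C66 it no longer passed (permutation p adjusted 0.0671). Fos itself differed between the chips, as given below, which can enter this r and its p-value. Clock genes had a median SD of 0.166 over 15 of 18, and the output gene Dbp (12.08, 12.19 and 12.53) and Per1 (10.08, 10.38 and 10.67) were not shown to be related (r = -0.245, permutation p = 0.441, adjusted 0.441, rho = -0.238), with r = -0.51 within chip 4 and -0.01 without C52 and C63.

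The 12 controls lay on 2 chips, which allowed a test of how far controls differ when no treatment does. Chip 4 was compared with chip 3 at positions B, D, F and H, 4 mice each, by limma over all 10240 probes with all 3 sets in the fit. At a Benjamini-Hochberg adjusted p below 0.05, 568 probes differed (5.55%), 244 higher (2.38%) and 324 lower (3.16%) on chip 4. Counted by the brightest probe of each gene, 436 genes differed (5.49%), of which 219 were higher (2.76%) and 217 lower (2.73%). The number of probes fell to 326 without C52, to 228 without C54, to 239 without C55 and to 297 without C64. Scaling the arrays to a common median over all probes, in place of quantile normalization, left 38 probes, all lower. The median difference of the 10240 detected probes was then -0.20. Under this scaling the median of the detected probes on C66 stood at -0.57 from the mean over arrays, and the others at -0.02 to 0.14. With C66 left out of this scaling, chosen after seeing the data, 847 probes were called (8.03% higher). The median raw signal of an array was 177 to 187 on chip 3 and 146 to 163 at even positions of chip 4, and its part in these counts was not tested.

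Erich5 differed most between the chips. Its normalized log2 signals were 9.91, 10.22, 10.07 and 10.08 on chip 3 and 10.93, 11.12, 10.96 and 11.39 at even positions of chip 4. The groups did not overlap, and the difference was 1.03 ± 0.14 (SE, limma adjusted p = 4.51e-04). The 4 mice at odd positions of chip 4 reached 10.37 to 11.27, all above chip 3. C60, at 10.37, lay nearer to the highest mouse of chip 3 (10.22) than to the lowest at even positions (10.93). Prf1 (0.79 ± 0.09, limma adjusted p = 9.57e-05) and Zxda (0.76 ± 0.13, limma adjusted p = 0.00287) were also higher on chip 4 with no overlap, as were Chka, a choline kinase of phospholipid synthesis, Zfp36l1, an RNA-binding protein that promotes mRNA decay, Rhbdl2, Ifngr2, a chain of the interferon gamma receptor, Atf5 and Erh, by 0.55 to 0.67. Each of these 10 genes, counting Cldn5 below, kept its call without any single array of the sets compared. The arrays at odd positions of chip 4 were not left out here. All 10 lost their calls under scaling to a common median. Under that scaling with C66 left out, chosen after seeing the data, all 10 kept their calls.

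Eif4g2 was the clearest of the genes that were lower on chip 4. Its normalized log2 signals were 9.35, 9.34, 9.27 and 9.17 on chip 3 and 8.56, 8.55, 8.76 and 8.62 at even positions of chip 4. There was no overlap, and the difference was -0.66 ± 0.08 (SE, limma adjusted p = 3.48e-04). Eif4g2, Sptbn1 (-0.64 ± 0.11) and Srp54a (-0.59 ± 0.09), a subunit of the signal recognition particle, were called under all 19 alternatives tried. At even positions of chip 4, Nrxn3, a neurexin of the presynaptic membrane, was lower by 0.62 and the kinase genes Sgk1 and Prkce by 0.57 and 0.55, with Jph4 at -0.58. Sgk1 was the 1 gene named here whose groups overlapped, through C65 on chip 4. Septin3 (-0.78 ± 0.18) lost its call without C55 or C64, and Mef2c (-0.65 ± 0.18) without C52, C54, C55, C63, C64, C65 or C66. With all 8 controls of chip 4 set against chip 3, the differences of Nrxn3, Septin3, Mef2c and Prkce were -0.37, -0.42, -0.42 and -0.35 and were not called (limma adjusted p = 0.105, 0.204, 0.134 and 0.0545). The mean at odd positions of chip 4 lay near that of chip 3 for Nrxn3 (9.23 and 9.34), Septin3 (10.05 and 10.12) and Mef2c (11.59 and 11.78).

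Some subunits of receptors for glutamate, the main excitatory transmitter of the cortex, were lower at even positions of chip 4 than on chip 3. Gria2, the AMPA receptor subunit that sets calcium permeability, had normalized log2 signals of 12.35, 12.38, 12.25 and 12.21 on chip 3 and 11.98, 11.72, 11.88 and 11.77 at even positions of chip 4. These groups did not overlap, while the odd positions of chip 4, at 12.24, 12.13, 12.06 and 11.98, reached from the one to the other. The difference was -0.46 (limma adjusted p = 0.00287). Gria3 (-0.34) and the kainate receptor subunit Grik5 (-0.39) were also called, which made 3 of 7 detected ionotropic glutamate receptor genes lower and 0 higher, beside 2.73% of all genes lower. These 3 kept their calls without any single array of the sets compared and lost them under scaling to a common median. The median difference was -0.30 over this list, beside 0.01 over all genes.

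Some genes of the heat shock response were higher on chip 4 at even positions. Hspa1a, an inducible chaperone of the Hsp70 family, Hspb1, a small chaperone, Dnajb1 and Chordc1, partners of Hsp70 and Hsp90, and Fkbp4, an Hsp90 cochaperone, differed by 0.36, 0.33, 0.38, 0.35 and 0.27. They were 5 of 13 detected genes, with 0 called lower, beside 2.76% of all genes higher. Hspa8, also on this list, went the other way by -0.29 with no overlap of the groups, but was not called (limma adjusted p = 0.233). The count was 1 without C52 or C63, 0 without C54 or C55 and 3 without C64 or C65. The list's median difference was 0.21. Under scaling to a common median it was -0.06, while the median difference of all detected probes was -0.20, and Fkbp4 was then at -0.01. A pair of heat shock units, GAANNTTC, was searched in the 250 bases before the starts. It was found in 6.69% of all windows and in 4 of the 9 windows of detected heat shock genes: Hspe1, Hspb1, Fkbp4 and Hspa1a. The windows of Hspb1 (chr5:135887669-135887918, plus strand, 2 matches) and Hspa1a (chr17:34972157-34972406, minus strand, 1 match) are shown for the genes that were higher, with the matches in capitals:
Hspb1: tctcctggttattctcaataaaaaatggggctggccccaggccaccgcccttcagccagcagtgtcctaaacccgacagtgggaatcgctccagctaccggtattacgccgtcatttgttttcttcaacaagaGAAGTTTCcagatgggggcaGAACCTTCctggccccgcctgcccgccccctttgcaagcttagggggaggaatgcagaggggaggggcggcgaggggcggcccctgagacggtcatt
Hspa1a: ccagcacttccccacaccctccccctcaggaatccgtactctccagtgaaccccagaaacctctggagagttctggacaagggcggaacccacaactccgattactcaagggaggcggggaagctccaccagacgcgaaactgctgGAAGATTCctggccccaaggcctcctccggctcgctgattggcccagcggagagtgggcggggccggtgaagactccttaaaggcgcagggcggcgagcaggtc
The motif reads the same on both strands. Hspa1a has a near-identical neighbour, Hspa1b, so its probe may report both.

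Of the 17 detected immediate early genes, Fos (0.42), Egr2 (0.47) and Egr4 (0.46) were higher at even positions of chip 4 and Sgk1 lower, beside 2.76% of all genes higher and 2.73% lower. Fos had normalized log2 signals of 8.84, 8.68, 8.48 and 8.65 on chip 3 and 9.30, 9.22, 8.95 and 8.86 at even positions of chip 4. The lowest mouse of chip 4 lay just above the highest of chip 3. Without C55 0 of the 3 were called, and without C63 or C64 1 was. Among 9 detected endothelial and mural genes, Cldn5, the claudin of the blood-brain barrier, was higher by 0.67 (limma adjusted p = 7.06e-04), with 9.50, 9.62, 9.69 and 9.68 on chip 3 and 10.31, 10.14, 10.29 and 10.42 on chip 4. The mural cell genes Rgs5 (-0.36) and Vtn (-0.27) were lower, with 0 of the 2 called without C52, C54, C63 or C66 and 1 without C55, C56, C64 or C65. That was 1 gene of 9 higher and 2 lower, beside the same 2.76% and 2.73%. The granins and their chaperones did not move one way, with Scg5 higher by 0.43 and Scg3 lower by 0.39. By the brightest probe of each gene, 0 genes of the myelin, microglia, astrocyte, olfactory bulb, clock and ethanol lists were called between the chips.

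Position on chip 4 was compared next, with the even positions set against the odd positions in the same fit. This comparison shares the 4 arrays at even positions with the comparison of chips, so their differences are not independent. By limma 282 probes differed (2.75%), 130 higher (1.27%) and 152 lower (1.48%) at even positions, and by gene 206 differed (2.59%), of which 74 were higher (0.932%) and 132 lower (1.66%). The number of probes rested on single arrays: it was 15 without C57, 8 without C59, 187 without C60, 732 without C62, 148 without C63, 127 without C64, 147 without C65 and 132 without C66. Under scaling to a common median 0 probes passed, with 935 at an unadjusted p below 0.05.

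Bulb genes led the lower side. Cdhr1 had normalized log2 signals of 10.27, 10.78, 10.46 and 10.17 at odd positions and 7.68, 9.40, 9.75 and 7.45 at even positions. The groups did not overlap, and within the even positions C64 and C65 were far above C63 and C66. The difference was -1.85 ± 0.38 (SE, limma adjusted p = 0.0237), and the call was lost without C57 or C59. Calb2 (-1.43 ± 0.34, limma adjusted p = 0.0328), Trh (-1.03 ± 0.20, limma adjusted p = 0.0169) and Doc2g (-0.88 ± 0.16, limma adjusted p = 0.0118) were also lower. In each, C59 was the highest mouse at odd positions and C63 and C66 were the lowest at even positions. Calb2 lost its call without C57, C59, C60, C63 or C66. A second Calb2 probe differed by -0.89 (limma adjusted p = 0.055). With Reln (-0.53), Slc17a6 (-0.46), the glutamate transporter of subcortical and bulb neurons, and Th (-0.45), the rate-limiting enzyme of dopamine synthesis, 6 of 9 detected olfactory bulb genes were lower and 0 higher, beside 1.66% of all genes. The count was 3 without C66, 2 without C57 and 0 without C59, and the median difference of the list was -0.46. Chip 3, whose 4 mice were also at even positions, had Cdhr1 at 9.22, 8.12, 9.51 and 8.47.

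Interneuron genes that the bulb also expresses were lower with them: Calb2, Reln, Dlx1 (-0.56), a homeobox factor of inhibitory neurons, and Gad1 (-0.41) made 4 of 13 lower and 0 higher, beside 1.66% of all genes lower, with Reln counted in both lists. Sst, Pvalb, Npy and Vip, which mark cortical interneuron classes, were not among the genes called. Of these 4 calls 0 held without C57, C59, C63 or C66 and 2 without C60. The summed signal of the bulb list moved with this result, and its part in it was not tested.

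Dcn was lower at even positions and was called without any single array of the sets compared. Its normalized log2 signals were 9.92, 9.94, 9.58 and 9.82 at odd positions and 8.91, 9.24, 9.17 and 9.42 at even positions. The groups did not overlap, and the difference was -0.63 ± 0.10 (SE, limma adjusted p = 0.00647). Igf2 (-0.53) and Slc6a13 (-0.39), a GABA transporter of the meninges, were also lower, which made 3 of 9 meninges and fibroblast genes, beside 1.66% of all genes lower. The count was 1 without C57, C59, C63 or C65. The summed signal of this list was 13.68 to 14.10 at odd and 13.22 to 13.77 at even positions of chip 4, and 13.59 to 13.81 on chip 3. Ly6g6e, a member of the Ly6 family, was lower by 0.72 ± 0.10 (SE, limma adjusted p = 0.00329). It kept its call without any single array of the sets compared. Cacng5, Cpne4 and Cbln1, a synaptic organiser, were lower by 0.67, 0.62 and 0.60. All 3 lost their calls without C57, C59 or C66, Cacng5 and Cpne4 also without C63 and Cpne4 without C64. Septin3 was lower by 0.70 and lost its call without C57, C59, C60, C63, C64, C65 or C66.

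On the higher side, Hspa8 had normalized log2 signals of 11.53, 11.96, 12.24 and 12.44 at odd positions and 12.84, 12.83, 12.90 and 12.46 at even positions. The lowest even value lay just above the highest odd value, and the difference was 0.72 ± 0.14 (SE, limma adjusted p = 0.0213). Eef2, the elongation factor that moves the ribosome along, was higher by 0.59 ± 0.08 (SE, limma adjusted p = 0.00329). It was called without any single array of the sets compared. Hspa8 lost its call without C57 or C59. Tspan3, the receptor kinase Tyro3 and Map7, which binds microtubules, were higher by 0.43 to 0.46, and the G protein subunit Gnb1, Eri3, Tsc22d1 and the small chaperone Cryab by 0.42 to 0.44. Tyro3 lost its call without C59, and Tspan3 and Map7 without C57 or C59. Gnb1, Eri3, Tsc22d1 and Cryab lost theirs without C57, C59, C63 or C64, and each also without 1 to 3 of C60, C65 and C66. Hspa8 and Cryab made 2 of 13 heat shock genes higher and 0 lower, beside 0.932% of all genes higher. This count was 0 without C57 or C59 and 1 without C60, C63, C64 or C65.

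**Figure D4:**
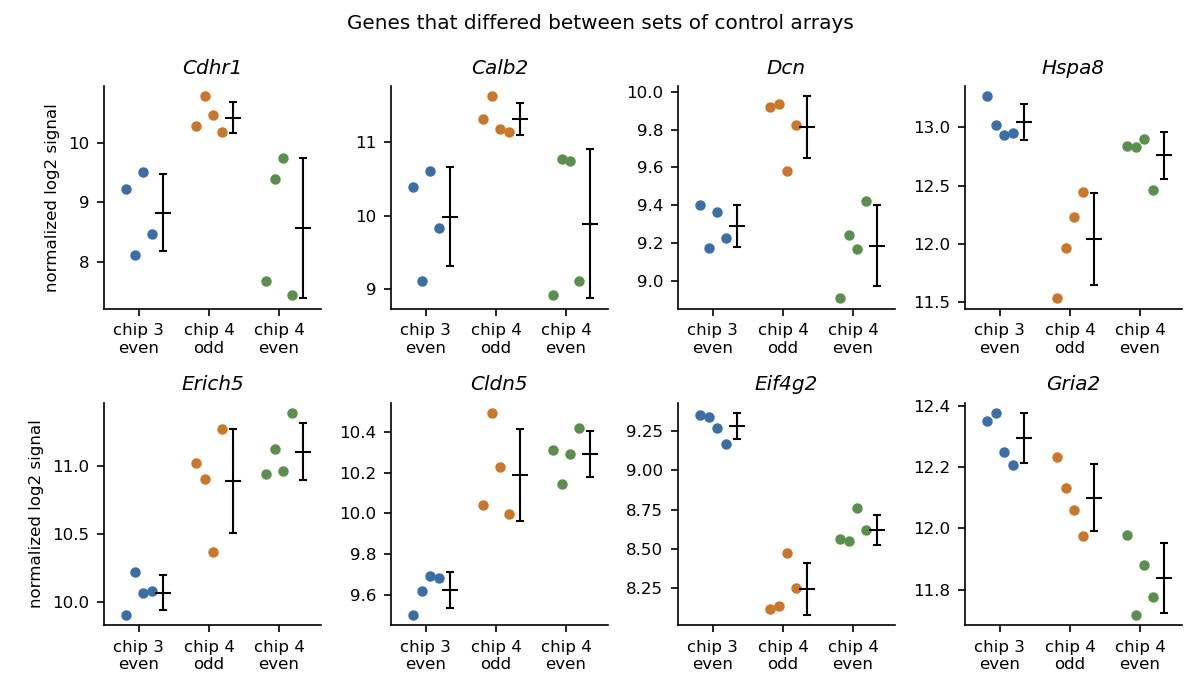
Normalized log2 signal (vertical axis, its range set for each gene) of 8 genes in the 12 control mice (points) by set, with the mean and SD of each set of 4 (black). Cdhr1, Calb2 and Dcn are highest and Hspa8 lowest in chip 4 odd, Erich5 and Cldn5 are lowest and Eif4g2 and Gria2 highest on chip 3.

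Where a probe lies in its transcript differed between the called groups. The probe start, counted in bases along the transcript as the file gives it, had a median of 1921 over all tested probes. It was 1295 for probes higher and 2401 for probes lower on chip 4 than on chip 3, and 1026 for probes higher and 2647 for probes lower at even than at odd positions of chip 4. The length of the transcripts was not used here, and what this order has to do with the differences was not tested. The median GC content of the probes was 54% over all probes and 52% to 56% in the 4 called groups.

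Probes of the same gene gave a check on single genes that needs no further mice. Over 265 pairs of detected probes that share at least 40 of their 50 bases, from 251 genes, the correlation over the 12 mice had a median of 0.470 (quartiles 0.195 and 0.664) and was below 0 for 11.3% of pairs. Over 2510 pairs of the same gene that do not overlap the median was 0.203 (quartiles -0.119 and 0.482), with 33.1% below 0. The SD over mice of the difference between 2 overlapping probes had a median of 0.141, beside the median SD of 0.127 of a gene between mice. Probes of a gene with a large spread could agree far better. The 2 probes of Ppp1cb share 49 bases and start 1 base apart, and their first 30 bases are printed with the shared bases in capitals:
Ppp1cb, first probe: gCTAAACGACAGTTGGTAACCTTATTTTCT
Ppp1cb, second probe: CTAAACGACAGTTGGTAACCTTATTTTCTg
They had means of 9.37 and 9.63, correlated at r = 0.917, and both were lower on chip 4 at even positions, by 0.61 ± 0.09 (SE, limma adjusted p = 0.00135) and 0.54 ± 0.13 (SE, limma adjusted p = 0.0212).

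**Figure D5:**
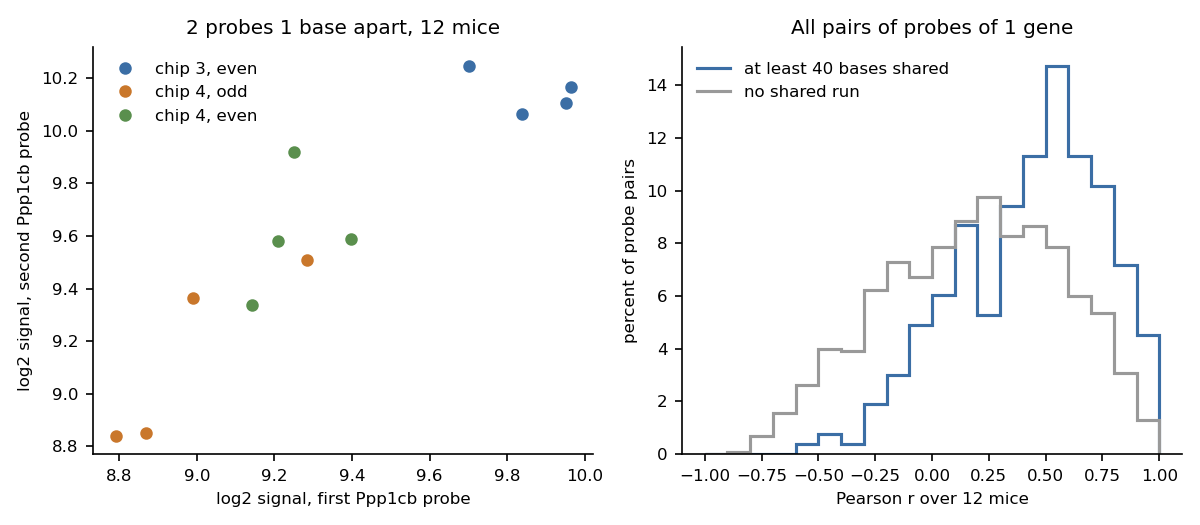
Left, normalized log2 signal of the 2 overlapping Ppp1cb probes in the 12 control mice, coloured by set, with the 4 mice of chip 3 at the upper right (r = 0.917). Right, Pearson r over the 12 mice for all pairs of detected probes of 1 gene, as percent of the 265 pairs that share at least 40 bases (median 0.470) and of the 2510 pairs that do not (median 0.203).

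Probes at different places of a transcript could disagree. Mef2c had 3 detected probes, and those starting at bases 2146 and 2207 differed between chips by -0.70 and -0.65, both called by limma, while the probe at base 706 differed by 0.06. The probe of Mbp, myelin basic protein, at base 4610 was higher on chip 4 by 0.41 (limma adjusted p = 0.0249), but those at 793 and 2211 differed by -0.04 and -0.09. Actb had 5 probes, none called between positions, with differences of 0.40, -0.23, 0.33, 0.21 and 0.50 from the start of the transcript to its end. Of 212 genes with several detected probes and a call between the chips, 17 had all their probes called and 2 had calls in both directions. Between positions of chip 4, 4 of 128 such genes had all probes called and 0 had calls in both directions.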

How the data were processed

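Frontal cortex RNA of 12 untreated control mice was analysed, 1 array per mouse. The authors deposited bead-averaged intensity values (AVG_Signal, not normalized), a detection p-value, the standard error and the number of beads for each of 25697 probes. The standard errors and bead numbers that the authors deposited are not normalized and gave the bead error only. The software and background step behind them are not given in the sources used here. The submitters' processing notes name lumi and limma without versions.

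Intensities were log2-transformed and quantile-normalized over the 12 arrays, and probes with detection p-value below 0.01 on at least 9 arrays were kept. Symbols were updated through RefSeq by Entrez ID (23788 probes) or accession (685), and the file's symbol was kept for 1224. A gene was represented by its brightest probe, and 1783 genes had several. limma 3.58.1 (R 4.3.3) fitted the 3 sets of 4 arrays, without a block, with Benjamini-Hochberg adjustment over the 10240 probes and a threshold of 0.05. Gene pairs were tested by permutation (100000 resamples, two-sided). Python 3.11.15, scipy 1.17.1 and matplotlib 3.10.9 were used.

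Named genes were the 20 brightest, the 25 with the largest and 10 with the smallest SD, 10 per direction in each comparison, and members of 29 gene lists. Some of these are not reported here. The members, lists and comparisons were chosen with earlier results of these data known. On simulated data with 200 changed probes of 10240, the comparison of chips recovered 35.5% of changes of 0.3 and 91% of changes of 0.5 on the log2 scale, and that of positions 37% and 90%. False calls were 4 and 11 between chips and 4 and 12 between positions. The simulated noise was independent between probes and arrays, without shifts of whole arrays. These shares therefore do not hold for variation that probes of an array have in common. Alternatives were median scaling, quantile normalization over all 32 arrays, a variance-stabilizing transform, normexp background correction (offset 16) and other detection rules. Array weights, fewer or more arrays in the fit and position as a block were also tried. In each comparison, every array of the sets compared was left out in turn, but not those of the remaining set. Arrays of ethanol-treated mice entered only the alternative over 32 arrays.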

Additional observations from a re-analysis of the deposited data

Results flagged for a closer look

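Within the 3 sets of 4 mice, 90 groups of values were examined for a single mouse far from the others, by the gap to its nearest neighbour over the range of the set, against Dixon's critical value, and 4 passed, where chance gives about 1 in 20. The glycolysis score of chip 3 even had a ratio of 0.884, with C56 at 0.0727 and the others at 0.105 to 0.109. The ribosomal protein score had 0.925 in chip 4 odd, with C57 at -0.0662 and the others between -0.0106 and -0.00608, and 0.944 in chip 4 even, with C63 at -0.0385 and the others between 0.0407 and 0.0455. The ethanol and aldehyde metabolism score of chip 4 even had 0.845, with C64 at 0.0668 and the others between -0.0269 and -0.0123.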

How the results depend on the processing

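The rule kept 11009 probes with detection on at least 6 arrays, 8863 on all 12, 11481 at p below 0.05 and 10186 without C66. The median SD between mice was 0.231 under median scaling. Of the 25 genes with the largest SD, 15 stayed among them under median scaling and 13 under normexp. Between chips, 38 probes were called under median scaling, 292 under normexp, 860 with array weights, 1233 with all controls of chip 4 and 228 to 552 without single arrays. Of the 568 calls, 43.0% were higher on chip 4, and 0 of 38 under median scaling. Median scaling with C66 left out, chosen after seeing the data, gave 847 calls between chips (8.03% higher) and 69 between positions (72.5% higher, beside 46.1%). Between positions, 0 probes were called under median scaling, 47 under normexp (63.8% higher), 443 with array weights, 34 with only the 8 arrays compared and 8 to 732 without single arrays. The correlation of Fos and Arc was 0.732 under median scaling (past the threshold), that of Dbp and Per1 turned to 0.685, and Fos and Dusp1 had 0.638 without C66, no longer past it. The cause was not tested. Under median scaling Fkbp4 and Sdhc turned to -0.01 between chips. For the named genes, 347 of the alternative values between chips kept their call and 33 lost it, and 216 and 121 did so between positions, with 0 reversed. No paired analysis was possible because the mouse numbers in the labels are not shared between sets. A block by position over the 8 arrays compared between chips, chosen after seeing the data, gave 811 calls (541 shared with the 568) and changed no call among the 20 genes with the largest differences between chips.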

Other observations

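The score of the neuropeptide and prohormone list was among those with the narrowest range between mice. Of 20 genes on the array 16 were detected, and the score ran from -0.03 in C66 to 0.04 in C62. A score averages over genes, so opposite changes can cancel in it. The genes themselves had a median SD of 0.154 beside 0.127 over all genes, and Trh had 0.582. Between chips Scg5, a chaperone of prohormone convertase, was higher and Scg3, a granin-binding protein of secretory granules, lower on chip 4. Of 24 receptors for dopamine, serotonin and noradrenaline, 8 were detected, with a median SD of 0.129. Htr1a, an inhibitory serotonin receptor, was lower on chip 4 than on chip 3 by 0.29 (limma adjusted p = 0.0498), and Adra2a, an inhibitory noradrenaline receptor, was lower at even than at odd positions by 0.34 (limma adjusted p = 0.031).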
